A study of Mus musculus with 51 samples.

Results

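The cells described here were EpCAM-low cells sorted from the oesophagus of Krt5-SmoM2 mice, at 7 weeks (7w, 4 libraries) and at 3 weeks (3w, 4 libraries). They were chosen as the 8 of 51 RNA-seq libraries whose titles carry that genotype, gate and time, and every autosomal gene of the count table was considered, 48182 of 52636 genes. The question is what differs between the later and the earlier time in the cells of the low gate. SmoM2 is an activated form of Smoothened, the signal transducer of the Hedgehog pathway, and Krt5, whose name the genotype carries, is a keratin of basal cells in stratified epithelia. EpCAM is an epithelial surface protein, and the gates kept cells with low or with high staining. 3 further groups served for comparison: the EpCAM-high cells of the same genotype at 7w and at 3w (4 libraries each), and wild-type (WT) oesophagus of strain CD1, also gated on low EpCAM (6 libraries). The labels give no strain, age or sex for the Krt5-SmoM2 mice, do not say from when the weeks were counted, how the transgene was switched on, or whether libraries came from separate animals. The p-values therefore measure only the spread between libraries, which may be technical.

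The oesophagus is lined by a stratified squamous epithelium: basal cells carrying Krt5, Krt14 and Trp63 divide, and their daughters move up while switching on Krt4, Krt13 and the proteins of desmosomes and the cornified envelope. Hedgehog signalling runs from the receptor Patched through Smoothened to the GLI transcription factors, which switch on Gli1 and Ptch1 as readouts of the pathway. In adult skin, constant Smoothened activity in epidermal cells is known to induce a programme like that of embryonic hair follicles.

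The 8 libraries held 5061987 to 7465172 counts at 7w and 6194295 to 8397843 counts at 3w. Levels are given as CPM, counts scaled to a common library total. The squamous label was borne out: Krt5 was at 2755 to 3144 CPM at 7w and 2202 to 2470.0 CPM at 3w, and Krt13 at 7159 to 7695 CPM at 7w and 2972 to 3352 CPM at 3w. Markers of other cell types were low. Summed over each list, 16 fibroblast genes gave 43.2 to 54.3 CPM at 7w and 51.2 to 69.7 CPM at 3w, 22 immune genes 11.7 to 16.1 CPM at 7w and 17.0 to 20.2 CPM at 3w, and 12 muscle genes 9.91 to 12.1 CPM at 7w and 15.01 to 25.6 CPM at 3w. Of 12 fibroblast genes tested, Col3a1, Pdgfra, Col6a1, Dpt and Col1a1 rose and Dcn fell, with a median log2 fold of 0.90. Over all autosomal genes 23.4% rose and 23.4% fell. The fibroblast rises numbered 9 without 3w library 1, 3 without 3w library 3 or 4 and 1 with the WT libraries in the fit. In EpCAM-high cells 10 of these genes rose and 1 fell (26.4% and 25.2% of all autosomal genes), with a median of 1.25. Adgre1, Ccr7, Cd3e, Fcer1g and Ms4a1 among the immune genes, and Myh4 among the muscle genes, had no count in any of the 8. The sums of 10 endothelial genes overlapped between the times (9.64 to 18.5 CPM at 7w, 14.9 to 18.2 CPM at 3w), as did those of 11 neural and glial genes (92.7 to 106.6 CPM at 7w, 86.9 to 106.7 CPM at 3w) and of 12 enteroendocrine and tuft cell genes (10.1 to 14.1 CPM at 7w, 8.56 to 12.6 CPM at 3w). The 9 melanocyte and Merkel cell genes summed to 22.1 to 26.6 CPM at 7w and 20.002 to 21.4 CPM at 3w, with Atoh1, Tyr and Tyrp1 at 0 throughout. The part of these cell types in the results was not tested. The 3w and 7w libraries carry different prefixes in their raw names, so time and library set cannot be told apart. Libraries also stand apart by sex-linked genes: all 4 7w libraries carried Y-linked Ddx3y at 132 to 148.1 CPM, and so did 3w library 4 at 133.5 CPM, whereas 3w libraries 1 to 3 had at most 0.455 CPM of Ddx3y and 5802 to 6369 CPM of Xist. Xist was at 62.6 CPM in 3w library 4 and at most 2.27 CPM at 7w. Y-linked Eif2s3y lay within the 7w range in that library (60.7 CPM, against 59.1 to 66.3 CPM). Kdm5d and Uty were lower there, at 16.1 and 47.0 CPM, against 32.1 to 37.1 and 69.5 to 83.9 CPM at 7w. The mitochondrial share of counts was 2.21 ± 0.0830% at 7w and 2.94 ± 0.247% at 3w (SD, n = 4 each; exact two-sided permutation p = 0.0286, the smallest that 4 against 4 can give, and 0.0571 after adjustment over 4 measures). With all libraries thinned to 5061987 counts, 23490 to 23587 genes were detected at 7w and 24383 to 25303 at 3w, with the same p.

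Of 16091 autosomal genes tested, 7538 (46.8%) passed an adjusted p of 0.05 between 7w and 3w (edgeR's quasi-likelihood test with Benjamini-Hochberg adjustment over all genes tested, the test behind every adjusted p in this text). Of these, 3767 (23.4%) were higher and 3771 (23.4%) were lower at 7w, and the median log2 fold of all autosomal genes was 0.0095. A log2 fold of at least 1 in size was reached by 653 higher (4.06%) and 1040 lower genes (6.46%). In 6824 genes (42.4%) the 4 libraries of one time lay wholly above those of the other, with 7w above in 3976 (24.7%) and below in 2848 (17.7%). In the EpCAM-high gate 8302 genes passed (51.6%), 4252 higher (26.4%) and 4050 lower (25.2%). Every ± beside a log2 fold is its standard error. With nearly every second gene called, a share of called genes near these percentages says nothing particular about a gene group, and folds, directions and overlap between libraries are given beside each count. In bulk libraries, fewer cells of a type and less RNA per cell cannot be told apart.

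**Figure D1:**
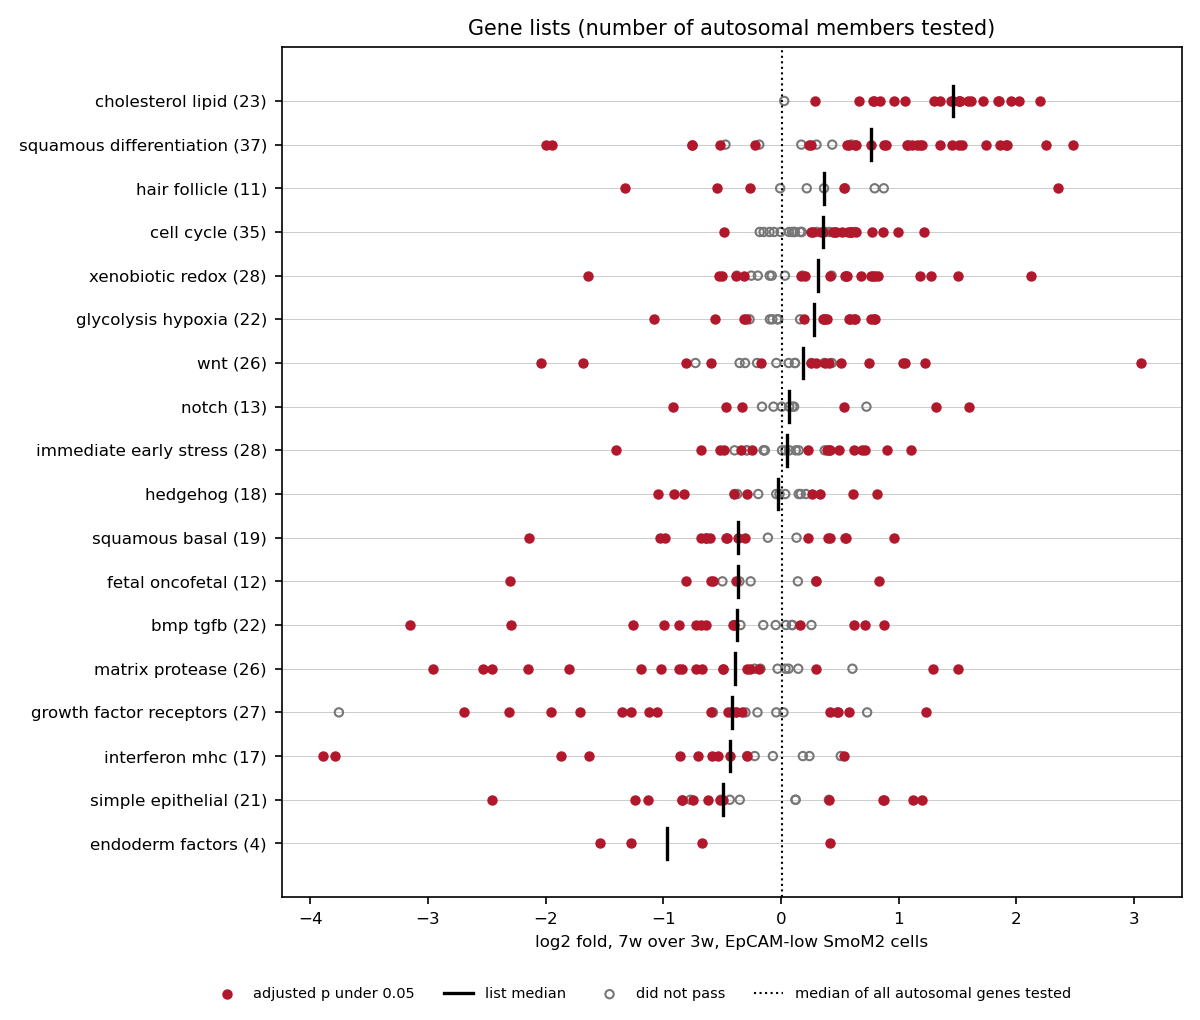
Log2 fold of 7w over 3w in EpCAM-low SmoM2 cells for every tested autosomal member of 18 gene lists, 1 point per gene, filled red where the adjusted p was under 0.05. Black bars mark the list medians and the dotted line the median of all 16091 autosomal genes; the sterol and fatty acid synthesis list lies furthest to the right at 1.47 and the 4 tested endoderm factors furthest to the left at -0.97.

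The clearest shared movement was in the synthesis of sterols and fatty acids. There 22 of 23 tested genes rose at 7w and none fell (23.4% of all autosomal genes in each direction). The median log2 fold of the group was 1.47, against 0.0095 over all autosomal genes, and in all 22 every 7w library lay above every 3w library, which was the case for 24.7% of all autosomal genes. Summed over the list, the level was 3877 to 5238 CPM at 7w and 1895 to 2007 CPM at 3w. Many of these genes, though not all, are textbook targets of the SREBP transcription factors, which are released from the endoplasmic reticulum when membrane sterol is low.

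The regulators of the pathway rose. Srebf2, which encodes the factor that drives the sterol genes, stood at 333, 297, 309.8 and 339 CPM in the 7w libraries, against 174, 153, 179 and 173 CPM in the 3w libraries. The 2 sets lie well apart, and the log2 fold was 0.84 ± 0.070 (SE, adjusted p = 9.72e-11). Srebf1, whose product drives fatty acid genes, was at 76.3 to 90.7 CPM at 7w and 61.6 to 68.8 CPM at 3w, a log2 fold of 0.29 ± 0.080 (SE, adjusted p = 0.00377). Insig1, the endoplasmic reticulum anchor that holds SREBP back and is itself an SREBP target, had 156, 143, 123 and 179 CPM in the 7w libraries, against 47.8, 43.4, 40.4 and 42.9 CPM in the 3w libraries. Its lowest 7w library was more than 2 times its highest 3w library, and its log2 fold was 1.71 ± 0.11 (SE, adjusted p = 1.37e-11).

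The enzymes rose along the whole sterol route. Hmgcs1, which makes the precursor of mevalonate, was at 817, 732, 573 and 893 CPM in the 7w libraries, against 263, 268, 246 and 259.9 CPM in the 3w libraries, a log2 fold of 1.47 ± 0.12 (SE, adjusted p = 3.90e-08). Lss, the lanosterol synthase that closes the ring, showed the largest fold of the group. It had 126, 90.3, 77.8 and 103 CPM in the 7w libraries, against 19.1, 25.7, 20.8 and 16.3 CPM in the 3w libraries, a log2 fold of 2.20 ± 0.16 (SE, adjusted p = 9.31e-09). All 4 of its 7w libraries were above all 4 of its 3w libraries by a wide margin. Squalene epoxidase (Sqle) rose by 1.62 ± 0.11 and the demethylase Cyp51 by 1.59 ± 0.14 on the log2 scale.

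Fatty acid enzymes moved with them. Fasn, fatty acid synthase, was at 396, 339, 324 and 383 CPM in the 7w libraries, against 145, 126, 145 and 121 CPM in the 3w libraries. The libraries of each time were tight and did not overlap, and the log2 fold was 1.35 ± 0.077 (SE, adjusted p = 5.51e-14). The desaturase Scd2 had 227 to 437 CPM at 7w and 73.9 to 116 CPM at 3w (log2 fold 1.85 ± 0.22, adjusted p = 1.87e-05), and Elovl4, which makes very long chain fatty acids of the epidermal barrier, 30.5 to 52.2 CPM at 7w and 6.78 to 11.2 CPM at 3w (log2 fold 2.02 ± 0.19, adjusted p = 5.92e-08). In EpCAM-high cells 21 members rose and 1 fell (26.4% and 25.2% of all autosomal genes), with a median of 1.14. The difference between the gates was itself called for 6 members, all with the larger fold in EpCAM-low cells (2.75% of autosomal genes), among them Srebf2, Fasn, Acaca, Scd1 and Elovl6. For Fasn the log2 fold was 0.91 ± 0.076 in EpCAM-high cells, and the difference between the folds 0.45 ± 0.11 (adjusted p = 0.00813).

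**Figure D2:**
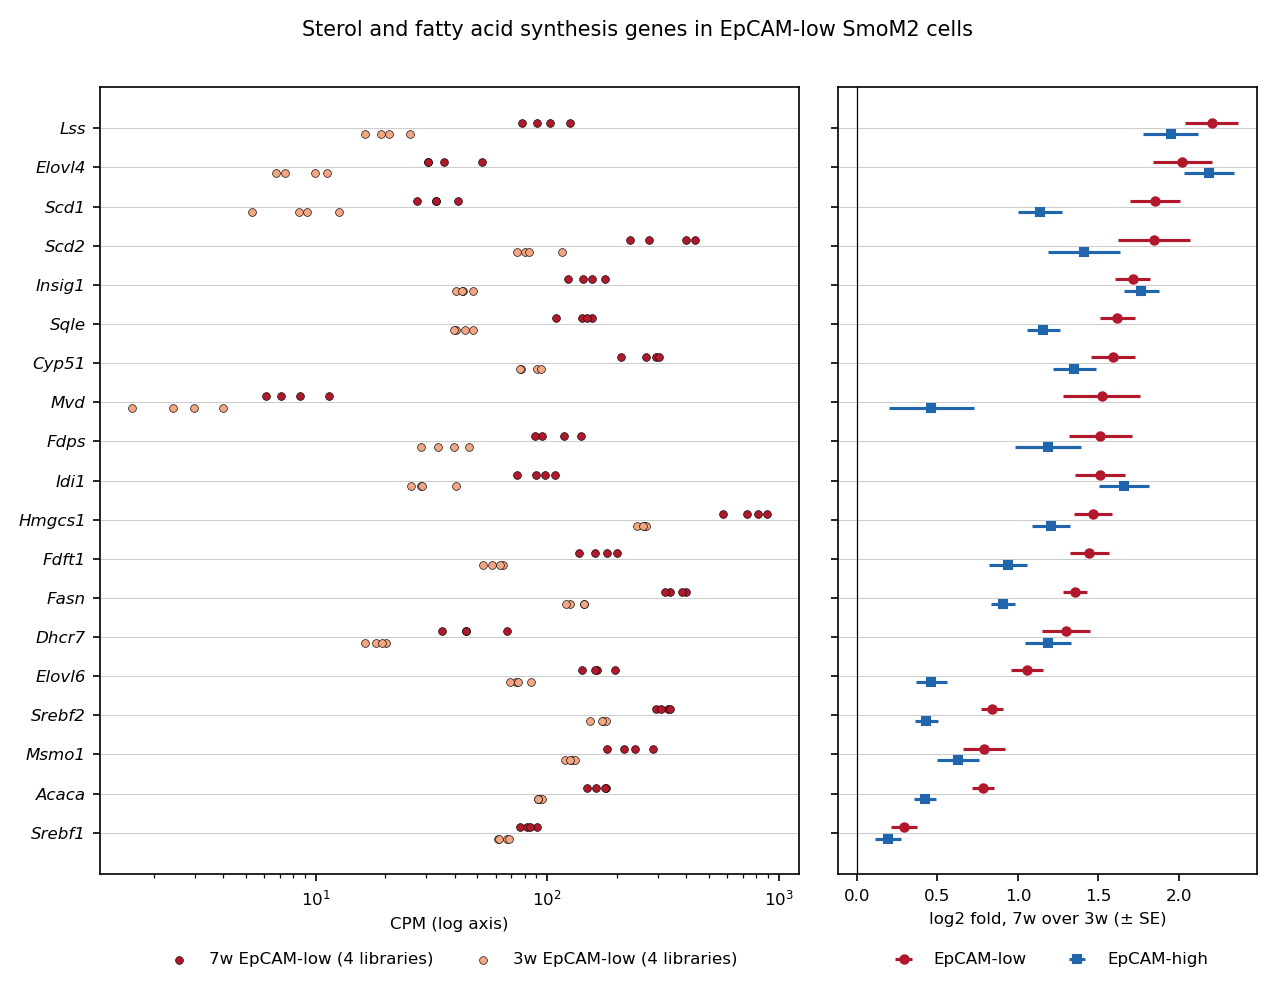
Left, CPM (log axis) of 19 of the 23 tested autosomal sterol and fatty acid genes in each EpCAM-low library, 7w dark and 3w light; right, log2 fold of 7w over 3w with its standard error in EpCAM-low (circles) and EpCAM-high cells (squares). The 2 times are separate for all 19 genes drawn, from Lss at 2.20 to Srebf1 at 0.29.

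Since these genes moved together, the stretches around their starts are shown for 5 of them, from 250 bases before to 50 bases after the start of the gene, as RefSeq gives them on build GRCm38.p6. The list had 14 autosomal genes with such a sequence. Capitals mark CCAAT on either strand (ATTGG where it lies on the other strand), the letters of the element bound by the factor NF-Y, a textbook partner of SREBP, and TCACNCCAC on either strand, the letters of the sterol regulatory element. No capital run combines these 2 motifs, and in Fasn 2 CCAAT matches on opposite strands overlap. The windows are chr13:119690101-119690400 on the plus strand for Hmgcs1, chr10:76531355-76531654 on the plus strand for Lss, chr5:28071162-28071461 on the plus strand for Insig1, chr15:82147019-82147318 on the plus strand for Srebf2 and chr11:120824498-120824797 on the minus strand for Fasn.
Hmgcs1: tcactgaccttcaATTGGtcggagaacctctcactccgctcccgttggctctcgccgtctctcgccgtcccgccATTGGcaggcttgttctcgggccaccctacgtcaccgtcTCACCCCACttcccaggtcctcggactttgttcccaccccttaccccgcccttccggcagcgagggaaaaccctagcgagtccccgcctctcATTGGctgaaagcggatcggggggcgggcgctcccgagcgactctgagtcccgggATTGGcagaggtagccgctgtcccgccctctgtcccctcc
Lss: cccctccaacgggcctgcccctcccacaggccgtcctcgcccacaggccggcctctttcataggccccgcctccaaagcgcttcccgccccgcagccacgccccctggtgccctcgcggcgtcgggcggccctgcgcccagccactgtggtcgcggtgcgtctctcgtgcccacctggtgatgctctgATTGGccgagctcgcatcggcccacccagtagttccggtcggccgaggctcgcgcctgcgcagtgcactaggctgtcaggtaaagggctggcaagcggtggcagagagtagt
Insig1: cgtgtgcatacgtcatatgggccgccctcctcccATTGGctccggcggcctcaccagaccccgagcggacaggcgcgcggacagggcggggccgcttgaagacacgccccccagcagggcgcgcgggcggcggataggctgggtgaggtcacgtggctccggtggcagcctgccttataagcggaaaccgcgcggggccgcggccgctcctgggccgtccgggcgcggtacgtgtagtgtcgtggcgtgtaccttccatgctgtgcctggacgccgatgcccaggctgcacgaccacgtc
Srebf2: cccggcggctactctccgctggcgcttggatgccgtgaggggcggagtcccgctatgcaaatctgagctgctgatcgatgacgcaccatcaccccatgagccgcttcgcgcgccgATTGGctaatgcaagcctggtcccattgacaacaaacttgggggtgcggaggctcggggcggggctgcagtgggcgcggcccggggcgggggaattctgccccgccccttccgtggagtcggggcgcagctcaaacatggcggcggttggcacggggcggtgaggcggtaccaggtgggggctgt
Fasn: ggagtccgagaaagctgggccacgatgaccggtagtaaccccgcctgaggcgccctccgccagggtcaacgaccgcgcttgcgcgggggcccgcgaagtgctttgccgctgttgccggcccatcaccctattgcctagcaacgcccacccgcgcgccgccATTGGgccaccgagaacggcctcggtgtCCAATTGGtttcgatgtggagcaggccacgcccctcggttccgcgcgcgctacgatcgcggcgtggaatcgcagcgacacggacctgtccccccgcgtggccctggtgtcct
Some genes have several such windows, so matches were counted by gene, in any window. CCAAT was present in 12 of the 14 genes (85.71%), against 5 of 18 Hedgehog genes (27.78%) and 41.06% of all 27025 genes. TCACNCCAC was present in 1 of the 14 (7.143%), in Hmgcs1, 137 bases before the start, against 1 of 18 Hedgehog genes (5.556%), Ihh, and 1.436% of all genes. A match is a description of letters, not a site shown to be bound.

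Squamous differentiation genes were the next group. Of 37 tested, 25 rose and 6 fell at 7w (23.4% of all autosomal genes in each direction), with a median log2 fold of 0.77. In 24 members every 7w library lay above every 3w library, the case for 24.7% of autosomal genes. The keratins of the suprabasal oesophagus carried much of the level. Krt13 (chr11:100117327-100121566 on GRCm38) had 7695, 7159, 7186 and 7534 CPM in the 7w libraries, against 3352, 2972, 3038 and 3046 CPM in the 3w libraries. Each group was tight, the lowest 7w library was more than 2 times the highest 3w library, and the log2 fold was 1.18 ± 0.074 (SE, adjusted p = 4.37e-13). Its partner Krt4 had 6001, 4712, 4703 and 5552 CPM in the 7w libraries, against 1928, 1769.8, 1563 and 1596 CPM in the 3w libraries, a log2 fold of 1.54 ± 0.26 (SE, adjusted p = 0.00039). WT libraries stood at 5767 to 10778 CPM for Krt13 and 3841 to 9794 CPM for Krt4, so both 7w groups fell within the WT range and both 3w groups below it; WT was not part of the fit.

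Desmosome and envelope genes rose with the keratins. Pkp1, a plakophilin of the desmosomal plaque, had the smallest p of all rising genes named here. It was at 1566, 1349, 1397 and 1561 CPM in the 7w libraries, against 548, 422, 510.4 and 474 CPM in the 3w libraries, a log2 fold of 1.52 ± 0.080 (SE, adjusted p = 2.58e-14). The 4 and 4 libraries were separate. The desmosomal cadherin Dsg1a of upper layers had 52.1, 40.5, 34.2 and 51.9 CPM in the 7w libraries, against 11.1, 7.79, 6.67 and 10.5 CPM in the 3w libraries, a log2 fold of 2.25 ± 0.20 (SE, adjusted p = 6.21e-08), whereas Dsg3, the cadherin of lower layers, rose by only 0.25 ± 0.079 with 1104 to 1266 CPM at 7w and 911 to 1038 CPM at 3w. Envelope scaffold genes Ppl and Evpl rose by 1.203 ± 0.11 and 1.08 ± 0.10, the transglutaminase gene Tgm3 by 1.11 ± 0.13, and Krtdap, a secreted protein of differentiating keratinocytes, by 1.45 ± 0.10 on the log2 scale. Krt10, the suprabasal keratin of epidermis, had 20.5 to 25.00 CPM at 7w and 4.29 to 8.56 CPM at 3w (log2 fold 1.92 ± 0.22). Lor and Sprr3, which encode structural proteins of the envelope, rose by 1.16 ± 0.22 and 1.92 ± 0.47. Transcription factors of the programme rose too: Klf4 was at 893, 851, 897 and 1032 CPM in the 7w libraries, against 571, 549, 627 and 622 CPM in the 3w libraries (log2 fold 0.56 ± 0.081, adjusted p = 2.70e-06), Grhl1 rose by 0.77 ± 0.10 and Grhl3 by 0.63 ± 0.082. In Grhl3 the fold was 0.15 ± 0.079 in EpCAM-high cells, and the gates differed by 0.48 ± 0.11 (adjusted p = 0.00693).

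Some members went the other way. The 6 that fell were Krt17, Krt16, Ivl, Ecm1, Anxa1 and Cstb, of which Krt16 and Krt17 are stress keratins of wounded or hyperproliferative epithelium and Krt17 also marks hair follicles. Krt17 (chr11:100256217-100261029) had 100.2, 83.0, 58.0 and 84.3 CPM in the 7w libraries, against 328, 309.6, 238 and 313 CPM in the 3w libraries. The highest 7w library was more than 2 times lower than the lowest 3w library, and the log2 fold was -1.94 ± 0.16 (SE, adjusted p = 1.43e-07). Ivl, involucrin, was at 0.536, 0.395, 0.766 and 2.27 CPM in the 7w libraries and 3.64, 4.12, 1.91 and 5.65 CPM in the 3w libraries, low levels that overlap (log2 fold -1.997 ± 0.41, adjusted p = 0.000264). Krt6a and its near copy Krt6b share sequence, so reads between them are uncertain; Krt6a did not pass (455 to 730.2 CPM at 7w, 600.2 to 795 CPM at 3w, adjusted p = 0.258). In EpCAM-high cells 26 members of the list rose and 5 fell (26.4% and 25.2% of all autosomal genes). The gates differed for 7 members (6.55%), 4 with the larger value in EpCAM-low cells.

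**Figure D3:**
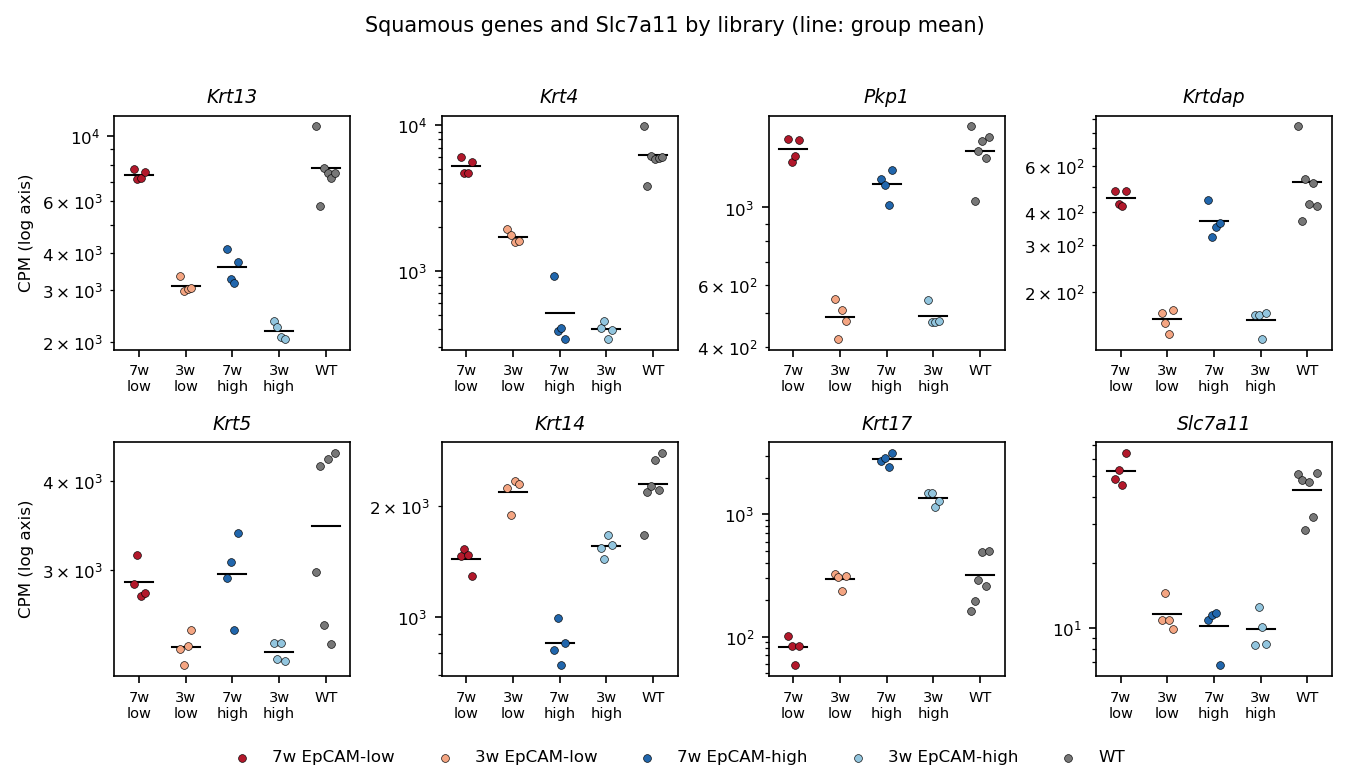
CPM (log axis) of 7 squamous genes and of Slc7a11 in each library of 7w and 3w EpCAM-low, 7w and 3w EpCAM-high and WT cells; lines mark group means. Krt13, Krt4, Pkp1 and Krtdap at 7w in the low gate sit within the WT range, Krt14 is lower at 7w than at 3w in both gates, and Krt17 and Slc7a11 differ in their time pattern between the gates.

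Basal cell genes were split. Of 19 tested, 6 rose (3 with WT in the fit) and 11 fell, beside 23.4% of all autosomal genes in each direction, with a median of -0.37. The transcription factors rose: Trp63, the master factor of stratified epithelia, had 667, 717, 659 and 709.6 CPM in the 7w libraries, against 494, 466, 504 and 523 CPM in the 3w libraries (log2 fold 0.40 ± 0.074, adjusted p = 6.81e-05). Sox2, the foregut factor of oesophageal progenitors, was at 87.2, 86.1, 64.3 and 61.2 CPM in the 7w libraries and 39.5, 37.7, 37.9 and 30.4 CPM in the 3w libraries, a log2 fold of 0.96 ± 0.11 (SE, adjusted p = 1.65e-07) with no overlap. Krt5 rose slightly, by 0.23 ± 0.070. Krt14, its partner in basal cells, fell: it had 1466, 1524, 1470.4 and 1291 CPM in the 7w libraries, against 2234, 1881, 2333 and 2281 CPM in the 3w libraries (log2 fold -0.68 ± 0.074, adjusted p = 1.49e-08). Krt15 did not pass, at 1451 to 1561 CPM at 7w and 1248 to 1354 CPM at 3w (0.13 ± 0.080, adjusted p = 0.18). Levels of the 2 partners, Krt5 and Krt14, thus moved in opposite directions, both without overlap between the times.

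Of the 11 members that fell, 8 encode integrin chains, laminin chains or collagen XVII, which hold basal cells to the matrix. The laminin chains Lama3 and Lamb3 fell with log2 folds of -0.63 ± 0.12 and -0.46 ± 0.080. Itgb1, the beta chain of most matrix integrins, was at 373, 408, 421 and 433 CPM in the 7w libraries and 767, 783, 764 and 765 CPM in the 3w libraries (log2 fold -0.99 ± 0.073, adjusted p = 9.13e-12). The 3w libraries were nearly level and lay far above the 7w libraries. Hemidesmosome genes fell by less: Itga6 was at 777 to 819.5 CPM at 7w and 941 to 999 CPM at 3w (log2 fold -0.37 ± 0.059), and Col17a1 at 1199 to 1510.2 CPM at 7w and 1672 to 1935 CPM at 3w (log2 fold -0.47 ± 0.085). Cd44, the hyaluronan receptor, had 1613 to 1936 CPM at 7w and 2445 to 2706 CPM at 3w (log2 fold -0.60 ± 0.079). Itga2, a collagen receptor chain outside the list, had 25.05, 25.5, 43.8 and 53.5 CPM in the 7w libraries, against 232, 289.6, 249 and 276 CPM in the 3w libraries (log2 fold -2.89 ± 0.25, adjusted p = 7.97e-07).

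Matrix, protease and migration genes fell broadly. Of 26 tested, 3 rose and 16 fell in EpCAM-low cells (23.4% of all autosomal genes in each direction), with a median of -0.39. In EpCAM-high cells 10 rose and 7 fell (26.4% and 25.2%), with a median of 0.082. The difference between gates was called for 9 members, in every case lower in EpCAM-low cells (3.8% of autosomal genes). Thbs1, thrombospondin 1, was at 74.2, 80.0, 109 and 116 CPM in the 7w libraries, against 626, 657, 818 and 708 CPM in the 3w libraries, a log2 fold of -2.96 ± 0.28 (SE, adjusted p = 2.13e-06). The highest 7w library was more than 5 times lower than the lowest 3w library. Tnc, tenascin C of wound matrix, had 63.2, 83.0, 44.6 and 69.2 CPM in the 7w libraries and 289.8, 257, 256 and 286 CPM in the 3w libraries (log2 fold -2.15 ± 0.17, adjusted p = 1.34e-07). Plaur, the urokinase receptor of migrating keratinocytes, was at 36.3 to 52.5 CPM at 7w and 227 to 237 CPM at 3w (log2 fold -2.46 ± 0.20, adjusted p = 2.69e-07). Adam8, a membrane protease, fell with a log2 fold of -1.80 ± 0.14. The basement membrane laminin Lamc1 had 142, 153, 138 and 147 CPM in the 7w libraries, against 258, 239, 265 and 246 CPM in the 3w libraries (log2 fold -0.87 ± 0.057, adjusted p = 8.29e-13), and Plau, urokinase itself, had 58.1, 46.6, 48.1 and 57.0 CPM in the 7w libraries, against 94.5, 105, 97.0 and 108 CPM in the 3w libraries (log2 fold -1.02 ± 0.11). For Plau the fold in EpCAM-high cells was 0.094 ± 0.11, and the gates differed by -1.11 ± 0.15 (adjusted p = 2.33e-05). Neither gene overlapped between the times. The 3 that rose were the gelatinase gene Mmp2 (1.51 ± 0.16), its membrane-bound activator Mmp14 (0.30 ± 0.095) and the collagen gene Col4a1 (1.29 ± 0.33), the last at no more than 2.95 CPM.

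Cald1, caldesmon, which binds actin and myosin, had the second largest fall of the genes named by size (chr6:34598500-34775473). It was at 2.55, 3.36, 1.68 and 4.20 CPM in the 7w libraries, against 78.0, 82.8, 51.1 and 55.7 CPM in the 3w libraries. The 7w libraries were each more than 10 times lower than any 3w library, and the log2 fold was -4.60 ± 0.23 (SE, adjusted p = 3.75e-11). In EpCAM-high cells Cald1 fell by less (-1.45 ± 0.17), and the difference between the folds was -3.16 ± 0.30 (adjusted p = 3.73e-06). Phldb2, which anchors microtubules at the basal cortex, had the smallest p of all genes in either direction among those named: 24.0, 34.2, 25.6 and 33.2 CPM in the 7w libraries, against 139, 141, 131 and 131 CPM in the 3w libraries, a log2 fold of -2.30 ± 0.10 (SE, adjusted p = 1.87e-16).

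Growth factors and their receptors gave more falls than rises: 5 of 27 tested rose and 13 fell (23.4% of all autosomal genes in each direction), with a median of -0.42. Among the EGF receptor ligands, Tgfa had 55.1, 50.2, 68.0 and 51.9 CPM in the 7w libraries, against 174, 167, 178 and 185 CPM in the 3w libraries (log2 fold -1.71 ± 0.087, adjusted p = 1.15e-14). Epgn, epigen, was at 7.77, 6.72, 8.88 and 8.22 CPM in the 7w libraries and 42.8, 58.9, 44.3 and 50.4 CPM in the 3w libraries (log2 fold -2.70 ± 0.22, adjusted p = 2.94e-08). Both ligands were lower in every 7w library than in any 3w library. Areg and Btc fell too, with log2 folds of -0.59 ± 0.15 and -1.05 ± 0.42. Hbegf was the 1 ligand of this family that rose, by 0.42 ± 0.11, and Ereg stood at 20.5 to 36.0 CPM at 7w and 26.3 to 30.8 CPM at 3w without passing. Among the receptors, Egfr itself was at 345, 341, 362 and 432 CPM in the 7w libraries, against 699.6, 732, 705 and 739 CPM in the 3w libraries (log2 fold -1.03 ± 0.094, adjusted p = 1.06e-08). Erbb2, its co-receptor, went the other way, with 111, 87.1, 96.2 and 93.0 CPM in the 7w libraries and 46.1, 33.0, 40.7 and 36.8 CPM in the 3w libraries (log2 fold 1.23 ± 0.10, adjusted p = 5.13e-11); its annotation overlaps Mien1. Met, the receptor of hepatocyte growth factor, had 145, 150.1, 172 and 213 CPM in the 7w libraries, against 601, 676, 603 and 632 CPM in the 3w libraries, a log2 fold of -1.96 ± 0.11 (SE, adjusted p = 1.64e-11). Igfbp3, which binds insulin-like growth factors, was at 39.8 to 79.7 CPM at 7w and 266 to 293 CPM at 3w (-2.32 ± 0.18). Among the fibroblast growth factor receptors, Fgfr3 rose by 0.57 ± 0.086 and Fgfr1 fell with a log2 fold of -1.35 ± 0.19, while Fgfr2 was at 321 to 332 CPM at 7w and 275 to 324 CPM at 3w (log2 fold 0.022 ± 0.064, adjusted p = 0.805).

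In the BMP and TGF-beta group 4 of 22 genes rose and 10 fell (23.4% of all autosomal genes in each direction), with a median of -0.37. The rises numbered 2 without 3w library 3, 3w library 4 or 7w library 1, with RLE size factors, with DESeq2, in a fit of the EpCAM-low libraries alone or with the Y-linked covariate, and 1 with WT in the fit. Inhba, whose product forms activin A, had 2.28, 2.37, 4.59 and 5.59 CPM in the 7w libraries, against 25.9, 33.7, 31.8 and 33.7 CPM in the 3w libraries, a log2 fold of -3.15 ± 0.25 (SE, adjusted p = 1.47e-08). Its binding inhibitor Fst, follistatin, fell as well, with 46.9, 72.9, 106 and 68.2 CPM in the 7w libraries and 268, 327, 381 and 396 CPM in the 3w libraries (log2 fold -2.29 ± 0.29, adjusted p = 2.74e-05). Neither gene had any overlap between the times. The receptor gene Tgfbr2 was at 54.0 to 79.9 CPM at 7w and 141 to 169.6 CPM at 3w (log2 fold -1.26 ± 0.11, adjusted p = 4.79e-09), and Skil, a feedback inhibitor that is a TGF-beta target, fell with a log2 fold of -0.99 ± 0.10. The ligand genes Tgfb1 and Tgfb2 fell as well (-0.68 ± 0.10 and -0.87 ± 0.19), as did Bmp2 (-0.64 ± 0.10). Bmp7 rose, with 54.4, 45.8, 44.6 and 48.2 CPM in the 7w libraries, against 24.0, 27.0, 27.4 and 21.3 CPM in the 3w libraries (log2 fold 0.88 ± 0.12, adjusted p = 8.18e-07). Id1, a BMP target, rose by 0.71 ± 0.17, whereas Id2, Id3 and Id4 did not pass. Bmpr1a and Smad6 rose too, and Bmp3 and Bmp4 fell.

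Genes of the interferon response and antigen presentation fell in 10 of 17 tested cases and rose in 1 (2 without 7w library 4), with a median of -0.44. The share over all autosomal genes was 23.4% in each direction. Gbp2, an interferon-induced GTPase, was at 1.47, 1.19, 2.91 and 1.57 CPM in the 7w libraries, against 22.3, 39.1, 21.4 and 21.1 CPM in the 3w libraries (log2 fold -3.90 ± 0.34, adjusted p = 8.42e-08). Its relative Gbp3 had 6 counts over the 7w libraries and 94 over the 3w libraries. Cd274, the checkpoint ligand PD-L1, was at 3.35, 4.15, 2.76 and 2.97 CPM in the 7w libraries and 8.19, 12.4, 9.53 and 8.72 CPM in the 3w libraries (log2 fold -1.63 ± 0.20, adjusted p = 8.90e-08). B2m, the light chain of MHC class I, stood at 74.9, 81.6, 76.1 and 73.1 CPM in the 7w libraries and 189, 118, 111 and 109 CPM in the 3w libraries (log2 fold -0.86 ± 0.19, adjusted p = 0.00187), with 3w library 1 far above the other 3. Outside the list, the cytokine receptor genes Il15ra and Tnfrsf1b fell too. Il15ra had 3.08, 3.56, 4.59 and 3.50 CPM in the 7w libraries, against 31.7, 37.7, 30.7 and 25.5 CPM in the 3w libraries (log2 fold -3.16 ± 0.16, adjusted p = 1.15e-14). Tnfrsf1b was at 0.874 to 1.88 CPM at 7w and 8.95 to 18.6 CPM at 3w (log2 fold -3.16 ± 0.28, adjusted p = 4.11e-10). Summed immune markers were lower at 7w as well, as given above, and their part was not tested.

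The Hedgehog pathway, in which the transgene acts, gave 4 rises and 5 falls among 18 tested genes, with a median of -0.026. Both counts lie near the 23.4% of all autosomal genes called in each direction. The ligand genes Shh, Ihh and Dhh were below the count minimum, at no more than 0.766 CPM in any of the 8 libraries, and Hhip, a target that binds ligand, had no count. Smo itself was at 96.3, 101, 92.3 and 95.1 CPM in the 7w libraries, against 81.8, 72.8, 78.2 and 71.7 CPM in the 3w libraries (log2 fold 0.26 ± 0.072, adjusted p = 0.0038), and at 57.4 to 89.5 CPM in WT libraries. The transgene transcript and the endogenous one cannot be told apart in this count. The readouts of the pathway were lower at 7w or did not pass. Gli1 (chr10:127329882-127341974, annotation overlapping Arhgap9) had 11.0, 6.32, 6.13 and 9.96 CPM in the 7w libraries, against 16.2, 16.9, 17.6 and 15.7 CPM in the 3w libraries. Every 7w library was below every 3w library, and the log2 fold was -1.05 ± 0.15 (SE, adjusted p = 3.32e-06). WT libraries had 0.428 to 1.22 CPM, so both times were above WT.

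Gli2, the main activator, was at 11.4, 10.9, 5.97 and 10.7 CPM in the 7w libraries, against 16.7, 18.8, 14.9 and 15.01 CPM in the 3w libraries (log2 fold -0.82 ± 0.15, adjusted p = 7.49e-05), with 7w library 3 lowest. Ptch1, the receptor and a direct target, had 107, 81.8, 68.0 and 101 CPM in the 7w libraries and 105, 121, 102 and 120.4 CPM in the 3w libraries. These ranges overlap, and the log2 fold was -0.40 ± 0.12 (SE, adjusted p = 0.0104). Gpr161, a ciliary receptor that restrains the pathway, fell to 9.91, 13.0, 14.1 and 13.1 CPM in the 7w libraries, against 29.0, 19.7, 20.01 and 20.7 CPM in the 3w libraries (log2 fold -0.91 ± 0.15, adjusted p = 2.20e-05). Sufu, the inhibitor that holds GLI proteins in the cytoplasm, rose: 20.4, 17.0, 20.1 and 16.8 CPM in the 7w libraries, against 10.9, 11.8, 11.4 and 12.3 CPM in the 3w libraries (log2 fold 0.61 ± 0.12, adjusted p = 7.80e-05). Gli3, whose product acts mainly as a repressor, rose by 0.33 ± 0.12 and the ciliary protein gene Iqce by 0.82 ± 0.17.

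In the EpCAM-high gate Gli1, Gli2 and Ptch1 rose with time. There Gli1 had 143, 169, 173 and 182 CPM at 7w, against 104, 98.5, 122 and 101 CPM at 3w (log2 fold 0.59 ± 0.10), and Ptch1 1614 to 1948 CPM at 7w, against 766 to 902 CPM at 3w (1.01 ± 0.11). In that gate 10 of the 18 genes rose and none fell (26.4% and 25.2% of all autosomal genes), with a median of 0.44. The difference between the gates was called for 7 of the 18, in every case lower in the low gate (3.8% of autosomal genes). Among them were Gli1 (-1.63 ± 0.18, adjusted p = 1.21e-06), Gli2 (-1.63 ± 0.18), Ptch1 (-1.41 ± 0.16), Kif7, Gas1 and Gpr161. At both times every EpCAM-low library was below every EpCAM-high library for Gli1, Gli2 and Ptch1.

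**Figure D4:**
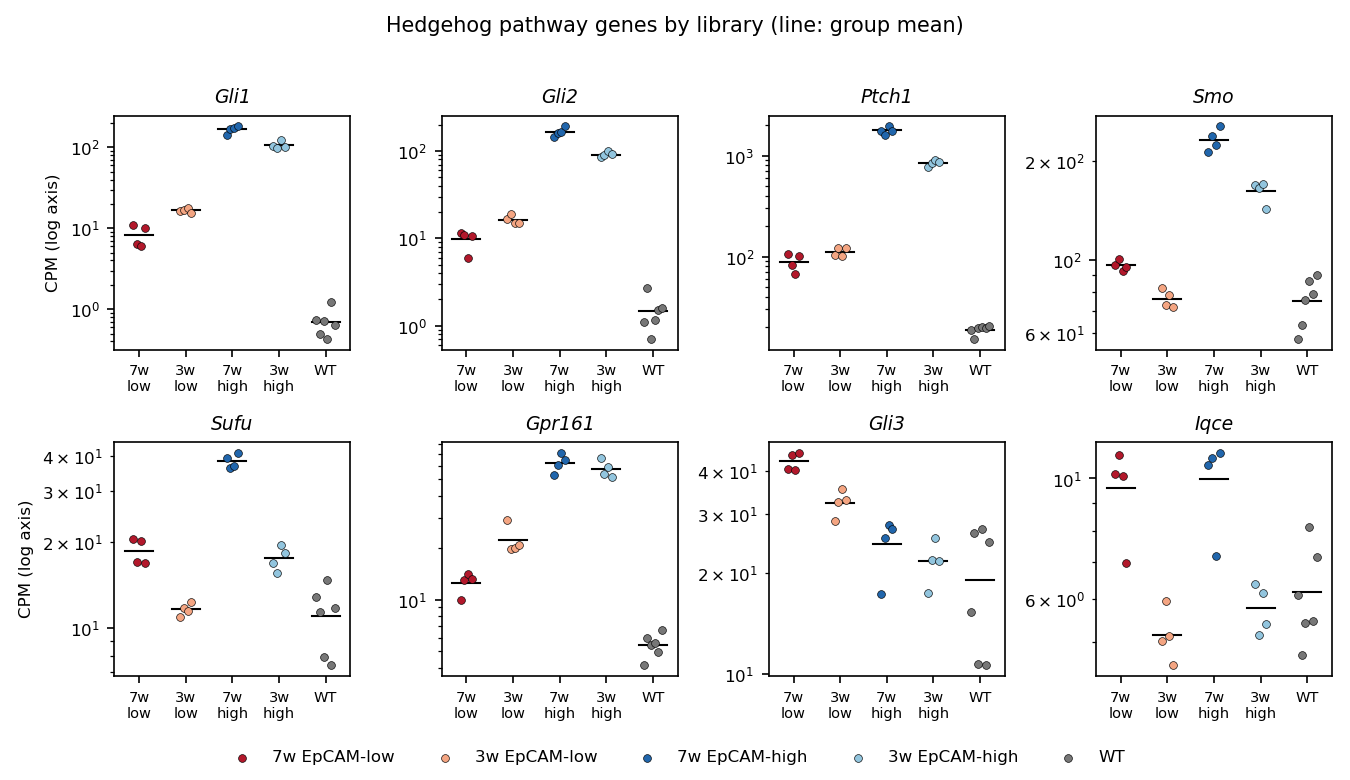
CPM (log axis) of 8 Hedgehog pathway genes in each library of 7w and 3w EpCAM-low, 7w and 3w EpCAM-high and WT cells; lines mark group means. Gli1, Gli2 and Gpr161 sit lower at 7w than at 3w in the low gate, Gli1, Gli2 and Ptch1 sit higher at 7w than at 3w in the high gate, and WT is lowest for all of these.

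Wnt and Notch genes were called in both directions, as were 23.4% of all autosomal genes in each. In the Wnt group 10 of 26 tested rose and 5 fell (median 0.19), against 17 and 2 in EpCAM-high cells (26.4% and 25.2% of all autosomal genes there). With the covariate for Y-linked counts 7 rose and 6 fell, and the falls numbered 3 without 3w library 4, 7w library 2 or 7w library 3. The ligand Wnt4 had 308, 254, 225 and 236 CPM in the 7w libraries, against 124, 134, 108 and 106 CPM in the 3w libraries (log2 fold 1.04 ± 0.14, adjusted p = 1.33e-05), the receptor Fzd10 was at 25.2 to 34.7 CPM at 7w and 10.2 to 14.8 CPM at 3w (log2 fold 1.23 ± 0.14, adjusted p = 2.94e-08), and the feedback inhibitor Rnf43 rose by 0.75 ± 0.11. Wnt5a, a ligand of the non-canonical branch, was at 7.10, 6.72, 5.82 and 4.72 CPM in the 7w libraries and 9.10, 11.9, 7.98 and 12.1 CPM in the 3w libraries (log2 fold -0.81 ± 0.18, adjusted p = 0.000425). In EpCAM-high cells it rose (1.28 ± 0.15), and the difference between the folds was -2.09 ± 0.23 (adjusted p = 5.99e-07). Lgr5, a Wnt target and R-spondin receptor, had 8.57, 9.48, 9.34 and 14.3 CPM in the 7w libraries and 6.37, 14.96, 9.41 and 15.01 CPM in the 3w libraries, overlapping values (adjusted p = 0.729). Among 13 Notch genes 3 rose and 3 fell (median 0.071), shares near those of all autosomal genes. Notch3, the receptor of suprabasal cells in stratified epithelium, had 134, 105, 102 and 120.3 CPM in the 7w libraries, against 39.3, 36.2, 32.6 and 37.0 CPM in the 3w libraries (log2 fold 1.5999 ± 0.093, adjusted p = 1.03e-13). The feedback gene Nrarp, a Notch target, rose to 53.0, 40.5, 38.1 and 37.1 CPM in the 7w libraries, against 16.5, 16.8, 16.1 and 15.2 CPM in the 3w libraries (log2 fold 1.32 ± 0.13, adjusted p = 2.45e-09), and Notch2 rose by 0.53 ± 0.071. Rbpj, the DNA-binding partner of Notch, fell slightly, with 50.2 to 62.0 CPM at 7w and 66.0 to 73.7 CPM at 3w (log2 fold -0.33 ± 0.075). The ligand Dll1 fell, with 49.998 to 75.0 CPM at 7w and 95.6 to 117 CPM at 3w (log2 fold -0.91 ± 0.14, adjusted p = 3.93e-05), while the targets Hes1 and Hey1 did not pass.

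Cell cycle genes were called in 19 of 35 cases, 18 higher and 1, Ccnd2, lower (23.4% of all autosomal genes in each direction), with a median of 0.36. Plk1, a mitotic kinase, was at 28.9, 32.0, 23.1 and 24.6 CPM in the 7w libraries, against 11.99, 9.62, 9.05 and 14.05 CPM in the 3w libraries (log2 fold 1.21 ± 0.18, adjusted p = 1.48e-05). Aurka, another mitotic kinase, rose by 0.87 ± 0.14 and the cyclin Ccnb1 by 0.77 ± 0.16. Mki67, present in all cycling cells, had 718, 947, 753 and 813 CPM in the 7w libraries and 619, 468, 567 and 603 CPM in the 3w libraries (log2 fold 0.44 ± 0.14, adjusted p = 0.016). Top2a, another general marker of cycling cells, overlapped between the times, at 332 to 459 CPM at 7w and 289 to 395 CPM at 3w (adjusted p = 0.619). With a covariate for Y-linked counts 7 members were higher. The comparison among libraries with Y-linked counts alone, which leaves 1 EpCAM-low library at 3w, is given further below.

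Immediate early genes were mixed, with 10 rises and 6 falls among 28 (median 0.055), beside 23.4% of all autosomal genes in each direction. With an offset for GC content 9 rose and 11 fell, and with WT in the fit 5 rose and 4 fell. With the covariate for Y-linked counts 8 rose and 4 fell. Fos had 2181, 2044, 2202 and 1553 CPM in the 7w libraries, against 1027, 929.5, 1160.4 and 935 CPM in the 3w libraries (log2 fold 0.90 ± 0.10, adjusted p = 5.39e-07), and Ier2 265, 259, 265 and 205 CPM in the 7w libraries, against 111, 106, 121 and 101 CPM in the 3w libraries (log2 fold 1.11 ± 0.071, adjusted p = 5.03e-13). In both genes 7w library 4 was the lowest of its group and still above all 3w libraries. Egr1 rose by 0.62 ± 0.072 and Jun by 0.39 ± 0.065, while its relatives Egr2 and Egr3 fell (-0.68 ± 0.10 and -1.40 ± 0.24), and Fosb and Nr4a1 did not pass. Members of this list are known to respond to tissue digestion, whose course the labels do not give for each library.

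Detoxification and redox genes rose in 15 of 28 cases and fell in 5 (23.4% of all autosomal genes in each direction), with a median of 0.31. The falls numbered 3 without 7w library 2 and 2 with WT in the fit. Slc7a11, the cystine importer that feeds glutathione synthesis (chr3:49892526-50443614), had 48.8, 53.1, 45.8 and 64.2 CPM in the 7w libraries, against 10.9, 14.5, 10.8 and 9.85 CPM in the 3w libraries. The lowest 7w library was more than 3 times the highest 3w library, and the log2 fold was 2.13 ± 0.15 (SE, adjusted p = 4.24e-11). In EpCAM-high cells the log2 fold was -0.019 ± 0.18 (adjusted p = 0.94), and the difference between the folds was 2.14 ± 0.24 (adjusted p = 1.36e-06). WT libraries had 28.3 to 51.5 CPM, so the 3w low gate lay below all 6 WT libraries and the 7w low gate overlapped their upper end. Its annotation overlaps 4 predicted genes. Mt4, the metallothionein of stratified epithelia, was at 188, 181, 168 and 184 CPM in the 7w libraries and 67.7, 61.2, 50.4 and 62.3 CPM in the 3w libraries (log2 fold 1.51 ± 0.17, adjusted p = 3.07e-06). In EpCAM-high cells its log2 fold was -0.17 ± 0.20, and the folds differed by 1.67 ± 0.26 (adjusted p = 0.000975). The aldehyde and alcohol dehydrogenases Aldh3b2 and Adh7 rose by 1.27 ± 0.089 and 0.79 ± 0.074, and Gstp1, a glutathione transferase, by 0.80 ± 0.077. Cyp26b1, which degrades retinoic acid, fell to 43.7, 44.8, 76.1 and 60.8 CPM in the 7w libraries, against 160.4, 164, 155 and 190.0 CPM in the 3w libraries (log2 fold -1.64 ± 0.17, adjusted p = 2.20e-06). Txnrd1, Mt1, Srxn1 and Ces1d fell as well, and Hmox1, Gclm and Mt2 were among the members that did not pass. The gates differed for 10 members (6.55% of autosomal genes), 8 of them with the larger value in EpCAM-low cells (2.75%).

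In the glycolysis and hypoxia group 12 of 22 rose and 4 fell (median 0.28), beside 23.4% of all autosomal genes in each direction. Hk1, the housekeeping hexokinase, was at 190.1, 184, 173 and 172 CPM in the 7w libraries, against 97.7, 91.5, 101 and 103 CPM in the 3w libraries (log2 fold 0.80 ± 0.064, adjusted p = 4.97e-11), and the glycolytic enzyme genes Pgam1 and Eno1 rose by 0.79 ± 0.10 and 0.63 ± 0.067. Adm, adrenomedullin, a hypoxia-induced peptide, fell with a log2 fold of -1.08 ± 0.11, and the transporter gene Slc2a1 stood at 347 to 486 CPM at 7w and 391 to 423 CPM at 3w (adjusted p = 0.845).

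Genes of simple epithelium and of early endoderm gave more falls than rises. Over all autosomal genes 23.4% rose and 23.4% fell, the shares to set beside each list count of this paragraph. Krt8, the keratin of simple epithelium, was below the count minimum with at most 1.07 CPM in the 8 libraries. Of 21 simple epithelial genes tested 5 rose and 9 fell (median -0.49). Epcam, the gate's own gene, had 141, 129, 129 and 129.9 CPM in the 7w libraries, against 209, 183, 179 and 200.2 CPM in the 3w libraries (log2 fold -0.62 ± 0.065, adjusted p = 6.74e-09). The gate used the protein, so this value also reflects how the cells were sorted. Cldn1, the tight junction protein of stratified epithelia, was at 50.1, 37.3, 50.5 and 67.8 CPM in the 7w libraries, against 275, 251, 271 and 280.3 CPM in the 3w libraries (log2 fold -2.45 ± 0.18, adjusted p = 8.49e-08), with a fold in EpCAM-high cells of -0.75 ± 0.16 and a difference between the gates of -1.71 ± 0.24 (adjusted p = 0.000529). Cgn, cingulin of the tight junction, went up by 1.204 ± 0.12. Of 16 endoderm factors 4 were tested: Sox9, Foxa1 and Gata6 fell and 1 rose. The rise was not called without 7w library 3, 3w library 1 or 3w library 3. Nor was it called with the covariate for Y-linked counts or with the GC offset. Sox9, a factor of progenitors in gut and hair follicle, was at 39.4, 34.8, 39.2 and 40.7 CPM in the 7w libraries, against 82.2, 79.2, 83.4 and 109.8 CPM in the 3w libraries (log2 fold -1.27 ± 0.16, adjusted p = 9.59e-06), with 3w library 4 highest. Foxa1, a pioneer factor of endoderm, had 72.5 to 99.5 CPM at 7w and 122 to 139.6 CPM at 3w (log2 fold -0.67 ± 0.093, adjusted p = 1.60e-06). Of 12 fetal and oncofetal genes 2 rose and 5 fell (median -0.37); Plagl1, an imprinted growth regulator, and the chromatin protein gene Hmga1 fell with log2 folds of -0.58 ± 0.070 and -0.59 ± 0.079. The fetal rises numbered 1 without 7w library 1 or 2 or without 3w library 3 or 4. Gastric genes gave no rise and 1 fall among 2 tested, intestinal genes 1 and 1 among 5, and secretory and antimicrobial genes 1 and 4 among 10. The intestinal fall was called in the fits without 7w library 4 or 3w library 3 but in no other fit that left out 1 library. Without 7w library 1 or 3 or without 3w library 1 or 4 the secretory falls numbered 2, and without 3w library 3 no secretory gene rose. Hair follicle genes gave 2 rises (4 without 3w library 3) and 3 falls among 11. Among them Foxn1, the nude factor, was at 8.98, 4.54, 3.52 and 6.12 CPM in the 7w libraries and 0.607, 1.68, 1.31 and 0.646 CPM in the 3w libraries (log2 fold 2.36 ± 0.31, adjusted p = 4.43e-07). Runx1 and the vitamin D receptor gene Vdr fell with log2 folds of -1.33 ± 0.13 and -0.54 ± 0.071, and the forkhead factor Foxe1 rose by 0.53 ± 0.14.

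Genes named by size or by p beyond these groups included further proteins of the upper layers. Among the largest rises were Acer1, an alkaline ceramidase of differentiating epidermis, with 12.1, 7.70, 8.73 and 13.8 CPM in the 7w libraries, against 2.28, 1.83, 1.07 and 1.61 CPM in the 3w libraries (log2 fold 2.59 ± 0.24, adjusted p = 8.98e-10). Serpinb12, a protease inhibitor of barrier epithelia, was at 161, 89.3, 75.0 and 123 CPM in the 7w libraries and 27.9, 23.4, 14.9 and 18.4 CPM in the 3w libraries (log2 fold 2.34 ± 0.31, adjusted p = 4.45e-05). Slc6a19, a neutral amino acid transporter, rose by 2.61 ± 0.30 and Smtnl2, a smoothelin-like protein, by 2.83 ± 0.34, both at levels of at most 20.8 CPM. Zfp750, a transcription factor of terminal differentiation, was at 156, 155, 140.4 and 163 CPM in the 7w libraries, against 59.6, 49.6, 57.5 and 55.5 CPM in the 3w libraries (log2 fold 1.39 ± 0.082, adjusted p = 1.23e-13); its annotation overlaps Tbcd. Rdh12, a retinol dehydrogenase, rose by 1.63 ± 0.10 and Pycard, the inflammasome adaptor, by 1.35 ± 0.085.

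Among the largest falls, Fgd3, an exchange factor for Cdc42, had 4 counts over the 7w libraries and 150 over the 3w libraries. With so few counts its fitted log2 fold of -5.01 ± 0.48 depends on the fit's prior count. Ccdc80, a secreted matrix protein, was at 0.536, 0.593, 0.766 and 0.3496 CPM in the 7w libraries and 7.28, 11.0, 8.69 and 7.43 CPM in the 3w libraries (log2 fold -3.96 ± 0.29, adjusted p = 6.95e-12). Calcb, a calcitonin gene-related peptide, had 0.670, 0.790, 1.07 and 2.10 CPM in the 7w libraries, against 12.3, 15.4, 15.4 and 17.4 CPM in the 3w libraries (log2 fold -3.79 ± 0.27, adjusted p = 8.93e-12). Both genes were far lower in every 7w library than in any 3w library. Among the falls with the smallest p were also Anxa3, an annexin (-2.002 ± 0.088), and Clic4, a chloride channel-like protein (-1.73 ± 0.078).

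Whether the time difference was the same in the 2 gates was tested gene by gene as the difference of the 2 log2 folds. The main fit took same-numbered libraries of the 2 gates as independent, though they may share a source. With these libraries blocked, the difference was called for 2226 autosomal genes. In the main fit it was called for 1054 of 16091 autosomal genes (6.55%), with the EpCAM-low fold above in 443 (2.75%) and below in 611 (3.8%). Of these genes 148 were called in both gates in opposite directions, 107 lower in the low gate and higher in the high gate and 41 the other way round. Ovol1, a repressor that drives epithelial differentiation, had 143, 127, 129.7 and 122 CPM at 7w and 64.8, 60.8, 68.8 and 60.5 CPM at 3w in the low gate. In the high gate it had 46.8, 41.9, 45.5 and 48.1 CPM at 7w and 58.2, 49.6, 49.2 and 51.1 CPM at 3w, and the folds differed by 1.22 ± 0.11 (adjusted p = 2.15e-08). Barx2, a homeobox factor of stratified epithelium, had log2 folds of 0.93 ± 0.083 in the low gate and -0.12 ± 0.092 in the high gate (difference 1.05 ± 0.12, adjusted p = 1.36e-06). Ptgr1, a reductase of lipid mediators, and Plxna2, a semaphorin receptor, showed the same order (differences 0.95 ± 0.11 and 0.78 ± 0.10).

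In the opposite order stood Fndc1, a fibronectin-domain protein, at 77.2, 69.7, 70.3 and 81.6 CPM at 7w and 134, 126, 132 and 139 CPM at 3w in the low gate, with a fold of 0.70 ± 0.083 in the high gate and a difference of -1.602 ± 0.12 (adjusted p = 1.14e-08). Rgs2, a regulator of G protein signalling, had log2 folds of -1.35 ± 0.11 in the low gate and 0.31 ± 0.10 in the high gate (difference -1.66 ± 0.15, adjusted p = 2.16e-08). Has3, a hyaluronan synthase, had 36.6, 36.3, 35.7 and 37.6 CPM at 7w and 49.6, 48.9, 40.1 and 44.4 CPM at 3w in the low gate, and 108, 114, 101 and 107 CPM at 7w and 57.2, 48.0, 55.0 and 61.8 CPM at 3w in the high gate. The folds differed by -1.28 ± 0.12 (adjusted p = 2.75e-08); its annotation overlaps Chtf8. Sox4, a factor of embryonic progenitors, had log2 folds of -0.39 ± 0.092 in the low gate and 0.88 ± 0.082 in the high gate, which differed by -1.26 ± 0.12 (adjusted p = 7.84e-08). Krt17 showed the widest such contrast among the keratins named here: in the high gate it was at 2732, 2912, 2429 and 3202 CPM at 7w and 1507, 1493, 1156 and 1288 CPM at 3w, and the folds differed by -2.93 ± 0.21 (adjusted p = 1.20e-06).

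**Figure D5:**
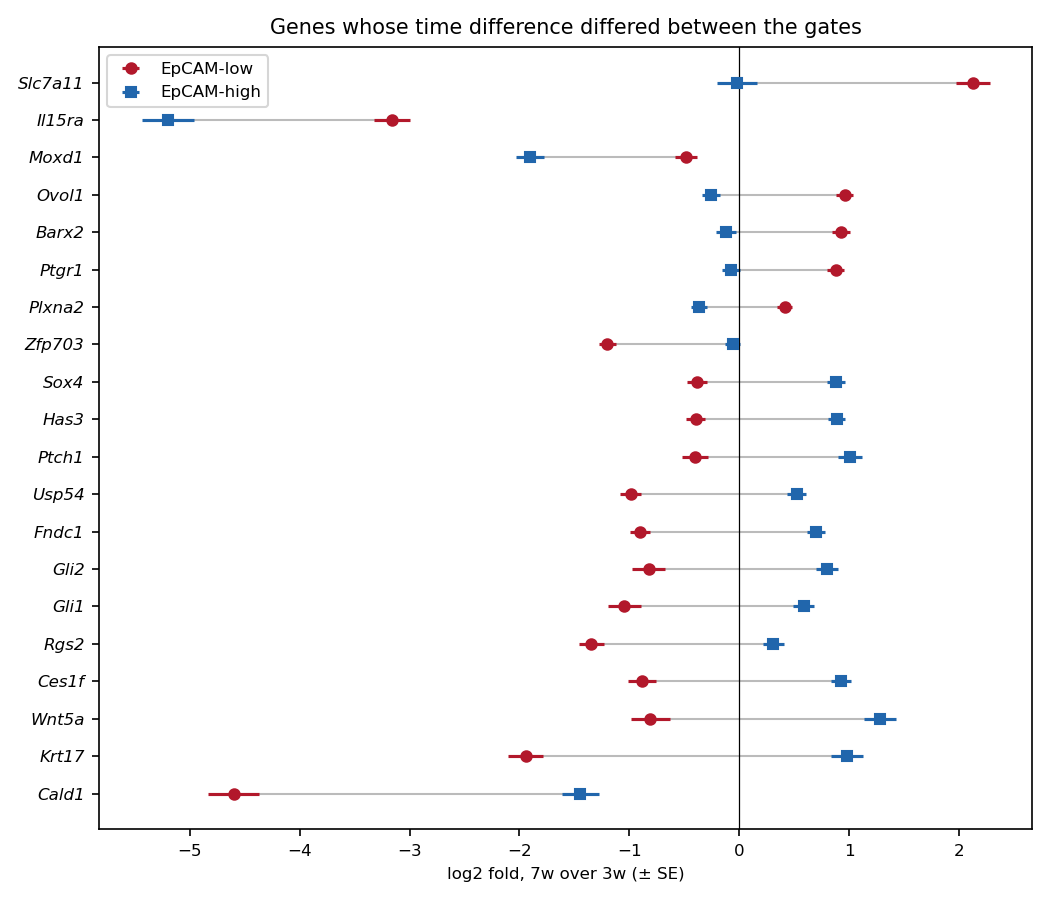
Log2 fold of 7w over 3w with its standard error in EpCAM-low (circles) and EpCAM-high cells (squares) for 20 genes, ordered by the difference between the gates. Slc7a11 is at 2.13 in the low gate and -0.02 in the high gate; Gli1, Gli2, Ptch1, Wnt5a and Krt17 are below 0 in the low gate and above 0 in the high gate.

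3 of the 4 3w libraries lack Y-linked counts and all 7w libraries have them, so the comparison was repeated with that difference taken into account. With a covariate for Y-linked counts 5741 autosomal genes passed, 5450 of them among the 7538 and with the same sign, and the covariate itself was called for 2 autosomal genes, Tenm4 and Tmprss11a. Against 3w library 4 alone, the 1 with Y-linked counts, which is assumed to vary like the other groups, 3423 passed, of which 3310 were shared with the same sign, while 32 genes changed sign. There the log2 folds were 2.51 for Lss, 1.48 for Fasn, 1.18 for Krt13, -2.04 for Krt17, 2.33 for Slc7a11, -4.36 for Cald1, -2.99 for Thbs1 and -0.98 for Gli1. With 1 EpCAM-low library left at 3w, a call lost there cannot be told apart from a loss of power. Calls lost there included those of Krt4 (1.62), Gli2 (-0.73), Ptch1 (-0.53), Smo (0.33), Sufu (0.51), Trp63 (0.30) and Ccnb1 (0.53), and those of Krt5, Krt20 and Mki67, which were lost with the covariate too. Of the counts of main lists with at least 2 members called over all libraries, the following changed by more than 1.5 times in that comparison, the count over all libraries standing in brackets. Those higher at 7w were 16 squamous differentiation genes (25), 3 cell cycle genes (18), 3 Wnt genes (10), 6 glycolysis genes (12), 3 growth factor genes (5), 1 Hedgehog gene (4), 1 BMP and TGF-beta gene (4) and no fetal gene (2). Those lower at 7w were 10 matrix genes (16), 8 growth factor genes (13), 5 interferon genes (10), 3 Hedgehog genes (5), 2 immediate early genes (6), 2 fetal genes (5) and 1 Notch gene (3). Sterol and fatty acid genes had 21 rises there (22), and hair follicle genes 3 (2). Across autosomal protein-coding genes the fold also moved with base composition: in 10 equal bins of GC content the median log2 fold was -0.118 in the lowest (30.96 to 41.51%) and 0.180 in the highest (57.95 to 76.47%). With an offset for GC content 7289 genes passed, and the log2 folds were 1.18 for Fasn, 1.05 for Krt13, 2.21 for Lss and -1.23 for Gli1.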

How the data were processed

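Cells of the digested oesophagus were sorted by EpCAM and their total RNA was made into libraries with NuGen Ovation Solo and sequenced, per the labels' protocols. The deposited table holds read counts per gene, made by the authors with STAR 2.5.3a and HTSeq per the submitters' processing notes. Those notes list edgeR too, and as genome builds GRCm38 and mm10. Which annotation release was counted and whether strand was used was not given in the sources used here, so overlapping genes are uncertain. Gene positions, types and chromosomes were taken from GENCODE M21 (GRCm38), and promoter windows from RefSeq (GRCm38.p6). CPM were computed as counts over the library total.

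Differences were tested with edgeR 4.0.16 (R 4.3.3, limma 3.58.1): TMM scaling, genes filtered with a count minimum of 10, a robust quasi-likelihood fit over the 16 libraries of both gates and times, and Benjamini-Hochberg adjustment over 16621 genes, with calls counted over the 16091 autosomal ones. The gate difference was the contrast of the 2 time differences. Library measures were compared by exact two-sided permutation tests. DESeq2 1.42.0 and other settings were tried as alternatives. The fit was first tested on simulated counts in which 100 genes changed by a log2 fold of 1 in size and 100 by 2. It recovered 74% and 97% of them, and 6.6% of its calls were false. Far fewer genes changed there than were called here, and no other group difference was simulated, so the error rate in these data was not tested. WT libraries entered no test beyond 1 alternative fit; 2 WT pairs (3 and 5, 4 and 6) differed by less than other pairs (chi-square per degree of freedom 1.92 and 2.47, against 11.0 to 35.6).

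Of 28 gene lists, 18 were main lists. Genes were named by the 4 smallest p among called members of each main list, by the 15 largest folds and 10 smallest p in each direction, and by the 6 smallest p in each direction for the gate difference, 136 in all; other list members were chosen after their values were seen. Some of the genes named by this rule or held by these lists are not reported here. The members and lists were chosen with earlier results of these data known. Replicate numbers were not used as pairs, since the labels state no shared animal, same-numbered libraries of the 2 times did not deviate together, and those of the 2 gates did so in all pairs but 1.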

Additional observations from a re-analysis of the deposited data

Results flagged for a closer look

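With 136 named genes and 2 times, chance alone would set single libraries apart in several genes. Single libraries stood apart from the other 3 of their group in the following genes, by a gap that chance gives in about 1 in 20 groups. At 7w in EpCAM-low cells these were Egr1 (1562.52 CPM), Ier2 (205.411 CPM) and Lgr5 (14.3351 CPM) in library 4, Gli2 (5.97279 CPM), Krt20 (1.83778 CPM) and Krt6a (455.463 CPM) in library 3, Rgs2 (13.631 CPM) in library 2 and Epcam (140.519 CPM) in library 1. At 3w these were Gbp2 (39.0871 CPM) and Itgb1 (783.116 CPM) in library 2, Gpr161 (28.9836 CPM) in library 1, Hmga1 (83.3547 CPM) in library 3, and Slc6a19 (1.45295 CPM) and Sox9 (109.778 CPM) in library 4. The sex-linked genes set 3w library 4 apart most widely, with 62.6383 CPM of Xist, 133.51 CPM of Ddx3y, 60.701 CPM of Eif2s3y, 16.1439 CPM of Kdm5d and 46.9787 CPM of Uty.

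The log2 fold of 7w over 3w differed between the gates by the test of the difference itself (EpCAM-low minus EpCAM-high). The EpCAM-low fold was above for Slc7a11 (2.14495), Moxd1 (1.41934), Ovol1 (1.21608), Barx2 (1.04851), Ptgr1 (0.949777), Plxna2 (0.779259), Krt13 (0.531367) and Krt15 (0.397088). It was below for Ces1f (-1.81018), Rgs2 (-1.66087), Gli1 (-1.63365), Gli2 (-1.62539), Fndc1 (-1.6016), Usp54 (-1.51382), Ptch1 (-1.40646), Has3 (-1.28152), Zfp703 (-1.1425), Krt6a (-0.702486), Sox2 (-0.687421) and Epcam (-0.345899).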

How the results depend on the processing

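The count of autosomal genes passing between 7w and 3w in EpCAM-low cells was 7538. It was 3423 among libraries with Y-linked counts alone and 1693 with a log2 fold of at least 1 in size required, 6729 to 7311 without each library in turn, and between 5741 (covariate for Y-linked counts) and 7610 (no filter) with the other settings apart from the replicate block. The count for the difference between the gates was 1054. It was 397 with the 6 WT libraries in the fit, 127 among libraries with Y-linked counts alone, 367 with a log2 difference of at least 1, 887 to 984 without each library in turn, and 1049 to 1303 with RLE or GC scaling, DESeq2, the covariate for Y-linked counts or no filter. With the replicate block the counts were 7748 and 2226; same-numbered EpCAM-low libraries of the 2 times correlated at -0.029 to 0.055 and best with their own number in 2 of 4 cases. Same-numbered libraries of the 2 gates correlated at 0.064 to 0.21 at 7w, best with their own number in 3 of 4 cases, and at 0.15 to 0.19 at 3w, in 4 of 4. That is a hint from the data, and not from the labels, that the gates of 1 number share a source, except for number 4 at 7w. The sex-linked genes give the same hint at 3w. There number 4 had Ddx3y in both gates (133.5 CPM low, 143.8 CPM high) and Xist at 62.6 and 57.7 CPM. The other numbers had at most 0.46 CPM of Ddx3y in either gate. The main fit took the libraries of the 2 gates as independent. The comparison among libraries with Y-linked counts alone and the GC offset were chosen after seeing the data. The mitochondrial share differed by -0.844 to -0.662 percentage points and the number of genes detected by -1289.33 to -982.667 without each library in turn, where the exact permutation test of 3 against 4 cannot go below p = 0.0571. The share of the 500 highest genes differed by -0.984, against a positive difference for the 50 highest, and Krt15 turned to -0.0107 with the GC offset; the cause was not tested. Of 2293 comparisons of named genes across settings 2251 kept their direction and call, 40 lost the call, 1 gained it and 1 reversed. Of 688 for the gate difference 620 kept theirs and 68 lost the call. Of 952 list counts 834 stayed within 1.5 times. Depth, 5061987 to 8397843 counts a library, leaves genes under about 1 CPM to a handful of counts, and counting error is only part of their spread.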
